A study of Mus musculus with 18 samples.

Results

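Egr1, Egr2, Egr3, Nr4a1, Nr4a2, Nr4a3, Ier2, Myc and Cd69 are genes that T cells switch on within a short time of T cell receptor (TCR) engagement. They were taken as a set of 9 genes, listed by name, out of the 18193 genes on the array. A member was read through probe sets (groups of short probes) that the chip annotation assigned to that gene alone. The 9 genes had 18 such probe sets, and where a gene had several, the most variable of them across arrays was used and the others were checked against it. Every member had at least 1 usable probe set, and no filter on low values was applied.

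All samples were CD4+ T cells, freshly isolated from lymph nodes and spleen of mice on a B6;129 background and hybridised to Affymetrix arrays after 2 rounds of RNA amplification. FoxP3, on which regulatory T (Treg) cells depend as their lineage factor, was tagged on both X chromosomes of these heterozygous mice, with a human CD2 (hCD2) reporter on the studied allele and green fluorescent protein (GFP) on a wild-type allele, so that cells using either allele could be sorted from the same animals. The mutant groups were CD4+hCD2+GFP- cells carrying A384T, I363V or R397W in FoxP3, with 3 arrays each, from FoxP3A384T:hCD2/WT:GFP, FoxP3I363V:hCD2/WT:GFP and FoxP3R397W:hCD2/WT:GFP mice. The wild-type Treg groups were GFP+ cells of the A384T mice (3 arrays, called WT GFP of A384T mice), and GFP+ cells (WT GFP, 2 arrays) and hCD2+ cells (WT hCD2, 2 arrays) of FoxP3WT:hCD2/WT:GFP mice. Conventional T cells (Tconv, 2 arrays) were the CD4+ cells of FoxP3WT:hCD2/WT:GFP mice with neither reporter. The age of the animals is not given in the sources used here, and the labels do not say that replicate arrays came from separate animals, so every p-value here measures the spread between these samples, which may be technical.

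Binding of antigen to the TCR raises calcium and activates the MAP kinase and NF-kB pathways, which act on transcription factors already present in the cell, so immediate early genes need no new protein to be induced. Egr1, Egr2 and Egr3 are zinc finger factors downstream of MAP kinase signalling, and Egr2 and Egr3 are also known for restraining T cell activation. Nr4a1 (Nur77), Nr4a2 (Nurr1) and Nr4a3 (Nor1) are orphan nuclear receptors whose transcript levels report recent TCR signalling, and in mouse Treg cells the family is known to help keep Foxp3 expressed. Ier2 is a small nuclear immediate early protein, Myc drives cell growth and metabolism, and Cd69 is a surface lectin that retains activated lymphocytes in tissue by removing the egress receptor S1PR1 from the surface. The 3 substitutions lie in the DNA-binding forkhead domain of FoxP3 and are known from patients with IPEX, an inherited autoimmune disease. The study compared mutant with wild-type Treg cells, and Treg cells with Tconv cells.

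Array values are log2 expression values in which the authors had shifted every probe set so that its 2 Tconv arrays average 0. A value of 1 therefore means 1 log2 unit above the Tconv mean for that gene, and levels of different genes cannot be set against each other. Foxp3 itself was 7.23 ± 0.18 log2 units higher in WT Treg cells (WT GFP and WT hCD2 together) than in Tconv cells (estimate ± SE, adjusted p = 1.09e-11), and 6.64 to 7.34 units higher in the 3 mutant groups. All 6 Treg identity genes on the list (Foxp3, Il2ra, Ikzf2, Ctla4, Tnfrsf18 and Nrp1) passed the test as higher in WT Treg than in Tconv cells. Array medians over all probe sets lay between -0.06 and 0.02. Between WT Treg and Tconv cells, 0 of 8 myeloid, 0 of 7 T cell identity and 0 of 6 stromal markers were called, with 2, 1 and 0 at an unadjusted p under 0.05, while 1 of 6 B cell markers was called higher and 2 of 5 dendritic cell and 2 of 6 CD8 T and NK cell markers lower. The part of such cells in the member values was not tested. In pooled cells, fewer cells with a transcript and less transcript per cell cannot be told apart.

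Of the members, Nr4a2 and its relatives varied most between arrays. The promoters of the 3 Nr4a genes, 250 bases up to the listed transcription start (RefSeq, GRCm38.p6), are shown because these 3 genes were high together on I363V array 2 and above Tconv cells on most Treg arrays. Promoter sequences were at hand for 4 of the 9 members, these 3 and Egr2. Those of Egr1, Egr3, Ier2, Myc and Cd69 were not read, so the Nr4a genes cannot be set apart from them by sequence here. Capitals mark every TGACG or CGTCA, the 5-base core of the cyclic AMP response element (CRE) read on either strand.
Nr4a1, chr15:101266596-101266845, plus strand: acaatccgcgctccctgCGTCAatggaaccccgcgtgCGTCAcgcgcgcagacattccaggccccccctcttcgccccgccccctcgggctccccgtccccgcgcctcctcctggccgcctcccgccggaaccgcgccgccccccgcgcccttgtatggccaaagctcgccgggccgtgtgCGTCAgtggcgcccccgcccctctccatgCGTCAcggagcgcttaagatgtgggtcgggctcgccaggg
Nr4a2, chr2:57124004-57124253, minus strand: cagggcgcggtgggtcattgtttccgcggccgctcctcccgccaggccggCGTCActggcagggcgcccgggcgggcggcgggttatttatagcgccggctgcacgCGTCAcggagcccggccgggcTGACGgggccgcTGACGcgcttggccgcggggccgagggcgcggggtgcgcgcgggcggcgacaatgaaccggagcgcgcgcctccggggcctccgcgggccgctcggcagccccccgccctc
Nr4a3, chr4:48045055-48045304, plus strand: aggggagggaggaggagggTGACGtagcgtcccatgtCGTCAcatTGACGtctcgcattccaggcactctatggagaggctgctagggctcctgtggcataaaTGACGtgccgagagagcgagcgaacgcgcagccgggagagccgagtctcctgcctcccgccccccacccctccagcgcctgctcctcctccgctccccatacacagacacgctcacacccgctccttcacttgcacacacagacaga
Each of the 3 windows held 4 such cores, which began 40 to 233 bases before the start in Nr4a1, 111 to 200 in Nr4a2 and 147 to 231 in Nr4a3. In the gene annotation Nr4a1 begins at base 101253902 and Nr4a3 at base 48045078. The Nr4a1 window and most of the Nr4a3 window thus lie inside the annotated gene, before a later listed start. Of all 32851 windows of this length in the table, 17.8% held at least 1 core and 0.69% held 3 or more. The full CRE, in which TGACG is followed directly by TCA and so overlaps CGTCA, was in none of the 3 windows and in 1.55% of all windows. The CArG box, the site of serum response factor, was in none of the 3 and in 1.47% of all windows. Egr2 has 5 listed starts, some of them overlapping, with 0 to 2 cores each and a CArG box in 4. A match is a string of letters in a window and says nothing of binding.

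Nr4a1 was higher in every Treg array than in either Tconv array. Its log2 values were 0.995, 1.34 and 1.49 in A384T, 1.44, 2.88 and 0.72 in I363V and 0.72, 0.62 and 0.94 in R397W cells. In wild-type Treg cells they were 0.98, 1.36 and 1.27 in WT GFP of A384T mice, 0.85 and 1.06 in WT GFP and 0.93 and 0.99 in WT hCD2, against -0.03 and 0.03 in Tconv cells. All 16 Treg arrays thus stood above both Tconv arrays, and 1 array, I363V array 2, stood far above the rest. Group means ran in the order I363V, A384T, WT GFP of A384T mice, WT hCD2, WT GFP, R397W and Tconv, and each neighbouring pair overlapped except R397W and Tconv. Nr4a1 was 0.96 ± 0.38 log2 units, or 1.94-fold, higher in WT Treg than in Tconv cells, with adjusted p = 0.219 in limma's test over all genes. In I363V it was 1.68 ± 0.40 log2 units, or 3.20-fold, higher than in Tconv cells (adjusted p = 0.0408), and this was a call, that is an adjusted p under 0.05. That call ended without Tconv array 1 (1.65, adjusted p = 0.164), without Tconv array 2 (1.70, adjusted p = 0.239) or without I363V array 1 (1.80, adjusted p = 0.0743). It also ended in a fit of the 2 groups alone (adjusted p = 0.399) and with the R397W arrays left out of the spread (adjusted p = 0.0583). It held without I363V array 2, where the difference was 1.08 log2 units (adjusted p = 0.0206). The difference from Tconv cells was 1.28 ± 0.40 in A384T (adjusted p = 0.0824) and 0.76 ± 0.40 in R397W (adjusted p = 0.561). With I363V array 2 left out of the shared estimate of spread, a choice made after seeing the data, Nr4a1 was also called in WT Treg (adjusted p = 0.00699) and A384T (adjusted p = 0.00109) against Tconv cells. These 3 comparisons share the same Tconv arrays.

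Nr4a2 showed the widest range of any member, from -0.35 to 4.88 log2 units. It stood at 0.87, 0.80 and 1.06 in A384T, at 1.81, 4.88 and 1.39 in I363V and at 1.26, 1.88 and 0.16 in R397W cells. Wild-type Treg cells had 1.52, 1.70 and 1.66 in WT GFP of A384T mice, 0.87 and 1.76 in WT GFP and 1.17 and 2.02 in WT hCD2, against -0.35 and 0.35 in Tconv cells. The 3 A384T arrays lay below all 3 WT GFP arrays of A384T mice and below both WT hCD2 arrays, and R397W array 3 was the lowest Treg array. Of the 16 Treg arrays, 15 were above both Tconv arrays. In the order of group means (I363V, WT GFP of A384T mice, WT hCD2, WT GFP, R397W, A384T, Tconv) only A384T and Tconv did not overlap as neighbours. The difference between WT Treg and Tconv cells was 1.46 ± 0.72 log2 units, or 2.74-fold (adjusted p = 0.366), and was a call with I363V array 2 left out of the fit (adjusted p = 0.0460). Between I363V and Tconv cells it was 2.69 ± 0.76, or 6.46-fold (adjusted p = 0.0906), and was 3.34 and a call without I363V array 3 (adjusted p = 0.0300) but 1.60 and no call without I363V array 2 (adjusted p = 0.119). The within-group SD of Nr4a2 was 0.95, larger than that of 99.7% of genes.

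Nr4a2 had 6 probe sets that did not behave alike. Across the 18 arrays, 3 of them followed the chosen probe set 1455034_at closely, with r = 0.96 for 1447863_s_at, 0.92 for 1450750_a_at and 0.80 for 1450749_a_at. The other 2 stayed between -0.34 and 0.29 on every array (r = 0.40 and 0.04). On I363V array 2 the followers read 3.40, 4.25 and 0.93, so the high value there was not that of a single probe set. The size of a difference depended on the probe set. Between WT Treg and Tconv cells, where the chosen one gave 1.46 log2 units, the 3 followers gave 0.71, 0.47 and 0.23 and the other 2 gave -0.10 each, and the mean over the 6 probe sets gave 0.45 (adjusted p = 0.608). Between I363V and Tconv cells the followers gave 1.72, 2.21 and 0.51 against 2.69 for the chosen one, and the mean over the probe sets gave 1.18 (adjusted p = 0.127). That mean lay at 0.24 in A384T and 0.39 in R397W against Tconv cells.

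Nr4a3 also stood above both Tconv arrays on all 16 Treg arrays. The values were 0.43, 0.75 and 1.16 in A384T, 0.53, 2.13 and 0.22 in I363V and 0.63, 0.80 and 0.60 in R397W. They were 0.51, 0.57 and 0.88 in WT GFP of A384T mice, 0.35 and 0.99 in WT GFP and 0.47 and 1.13 in WT hCD2, against -0.08 and 0.08 in Tconv cells. I363V array 2 was again the highest and I363V array 3 the lowest Treg array, so the I363V group spanned all other Treg groups. All neighbouring groups in the order of means overlapped, other than the lowest Treg group, WT GFP of A384T mice, and Tconv. The difference between WT Treg and Tconv cells was 0.74 ± 0.40 log2 units (adjusted p = 0.421). The other 2 Nr4a3 probe sets stayed between -0.29 and 0.09 on every array and did not follow the chosen one (r = -0.19 and -0.06). A share of 2.91% of all genes lay above both Tconv arrays on every Treg array, as Nr4a1 and Nr4a3 did.

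Egr2 was the member that passed the test between WT Treg and Tconv cells. Egr2 values were 0.41, 0.46 and 0.45 in A384T, 0.32, 0.54 and 0.29 in I363V and 0.55, 0.79 and -0.12 in R397W cells. Wild-type Treg cells had 0.62, 0.65 and 0.78 in WT GFP of A384T mice, 0.54 and 1.08 in WT GFP and 0.83 and 0.90 in WT hCD2, against -0.22 and 0.22 in Tconv cells. Every mutant array was below both WT hCD2 arrays, and 1 mutant array, R397W array 3, lay within the Tconv range. The means ran WT hCD2, WT GFP, WT GFP of A384T mice, A384T, R397W, I363V and Tconv. As neighbours in that order, WT GFP of A384T mice and A384T did not overlap, nor did I363V and Tconv, and the other pairs did. Egr2 rose by 0.84 ± 0.21 log2 units, or 1.79-fold (95% interval 0.39 to 1.28 log2 units), in WT Treg against Tconv cells, with adjusted p = 0.0271. Its second probe set gave 0.83 ± 0.20 (adjusted p = 0.0228 over all probe sets) and followed the chosen one with r = 0.96. The call ended without Tconv array 1 (0.62, adjusted p = 0.285), WT GFP array 2 (0.70, adjusted p = 0.0935), WT hCD2 array 3 (0.85, adjusted p = 0.0582) or WT hCD2 array 4 (0.82, adjusted p = 0.0647). It held without Tconv array 2 (1.05, adjusted p = 0.0469) or WT GFP array 1 (0.97, adjusted p = 0.0154), and ended in a fit of the 3 groups compared alone (adjusted p = 0.111).

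Egr1 varied within groups more than between them, with 37.5% of its variance between groups, near the median of 40.8% over all genes. It read 0.49, 0.57 and 0.83 in A384T, 0.73, 1.29 and -0.11 in I363V and -0.25, 0.15 and 0.38 in R397W cells. Wild-type Treg cells gave 0.56, 0.51 and 0.80 in WT GFP of A384T mice, 0.53 and -0.18 in WT GFP and 0.58 and -0.11 in WT hCD2, and Tconv cells gave 0.34 and -0.34. The 6 arrays from A384T mice lay between 0.49 and 0.83, while arrays of WT GFP, WT hCD2 and Tconv each split into a high and a low array. All neighbours in the order I363V, A384T, WT GFP of A384T mice, WT hCD2, WT GFP, R397W and Tconv overlapped. The difference between WT Treg and Tconv cells was 0.21 ± 0.34 log2 units (adjusted p = 0.860).

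Egr3 showed the least difference between groups of any member. Its values were -0.12, -0.05 and 0.72 in A384T, 0.27, 0.45 and -0.08 in I363V and 0.14, 0.36 and -0.42 in R397W. In WT GFP of A384T mice they were -0.04, 0.07 and 0.56, in WT GFP 0.05 and 0.39 and in WT hCD2 0.28 and 0.19, against -0.22 and 0.22 in Tconv cells. All neighbours in the order WT hCD2, WT GFP, I363V, WT GFP of A384T mice, A384T, R397W and Tconv overlapped, and WT Treg and Tconv cells differed by 0.23 ± 0.27 log2 units (adjusted p = 0.784). Of the variance of Egr3, 9.65% lay between groups, against 60.7% for Egr2, 59.0% for Nr4a1 and a median of 40.8% over all genes. Its second probe set was nearly flat, between -0.10 and 0.14, and did not follow the first (r = 0.07).

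Ier2 was high on all I363V arrays and spread widely in R397W and Tconv cells. It had 0.40, 0.60 and 0.58 in A384T, 0.65, 0.99 and 0.57 in I363V and 0.35, -0.55 and 0.45 in R397W cells. Wild-type Treg cells had 0.48, 0.62 and 0.76 in WT GFP of A384T mice, 0.41 and 0.17 in WT GFP and 0.41 and 0.03 in WT hCD2, against 0.45 and -0.45 in Tconv cells. The 3 I363V arrays exceeded both WT hCD2 arrays, and R397W array 2 was the lowest of all 18. Neighbours in the order of Ier2 means (I363V, WT GFP of A384T mice, A384T, WT GFP, WT hCD2, R397W, Tconv) all overlapped. The Ier2 difference between WT Treg and Tconv cells was 0.25 ± 0.27 log2 units (adjusted p = 0.750).

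Myc read 0.93, 0.81 and 0.78 in A384T, 0.69, 0.76 and 0.53 in I363V and 0.71, -0.28 and 0.90 in R397W cells. Wild-type Treg cells had 1.20, 0.94 and 0.93 in WT GFP of A384T mice, 1.30 and 0.48 in WT GFP and 1.04 and 0.40 in WT hCD2, against 0.41 and -0.41 in Tconv cells. Of the 16 Treg arrays, 14 were above both Tconv arrays, and R397W array 2 and WT hCD2 array 4 lay within the Tconv range. Group means ran WT GFP of A384T mice, WT GFP, A384T, WT hCD2, I363V, R397W and Tconv, and all neighbours overlapped. Myc was 0.80 ± 0.31 log2 units, or 1.75-fold, higher in WT Treg than in Tconv cells (95% interval 0.13 to 1.47, adjusted p = 0.202). It was 0.39 without Tconv array 2 and 1.22 without Tconv array 1.

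Cd69 was the member whose Treg values overlapped most with Tconv cells. The values were -0.05, -0.29 and 0.10 in A384T, 0.34, 1.40 and 0.53 in I363V and 0.30, 0.56 and -0.14 in R397W. They were 0.18, 0.07 and 0.15 in WT GFP of A384T mice, 0.52 and -0.06 in WT GFP and 0.42 and -0.14 in WT hCD2, against 0.34 and -0.34 in Tconv cells. I363V array 2 was the highest, and 5 of the 16 Treg arrays were above both Tconv arrays. The order of means was I363V, R397W, WT GFP, WT hCD2, WT GFP of A384T mice, Tconv and A384T, with overlap between all neighbours. Cd69 differed by 0.18 ± 0.29 log2 units between WT Treg and Tconv cells (adjusted p = 0.856).

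**Figure D1:**
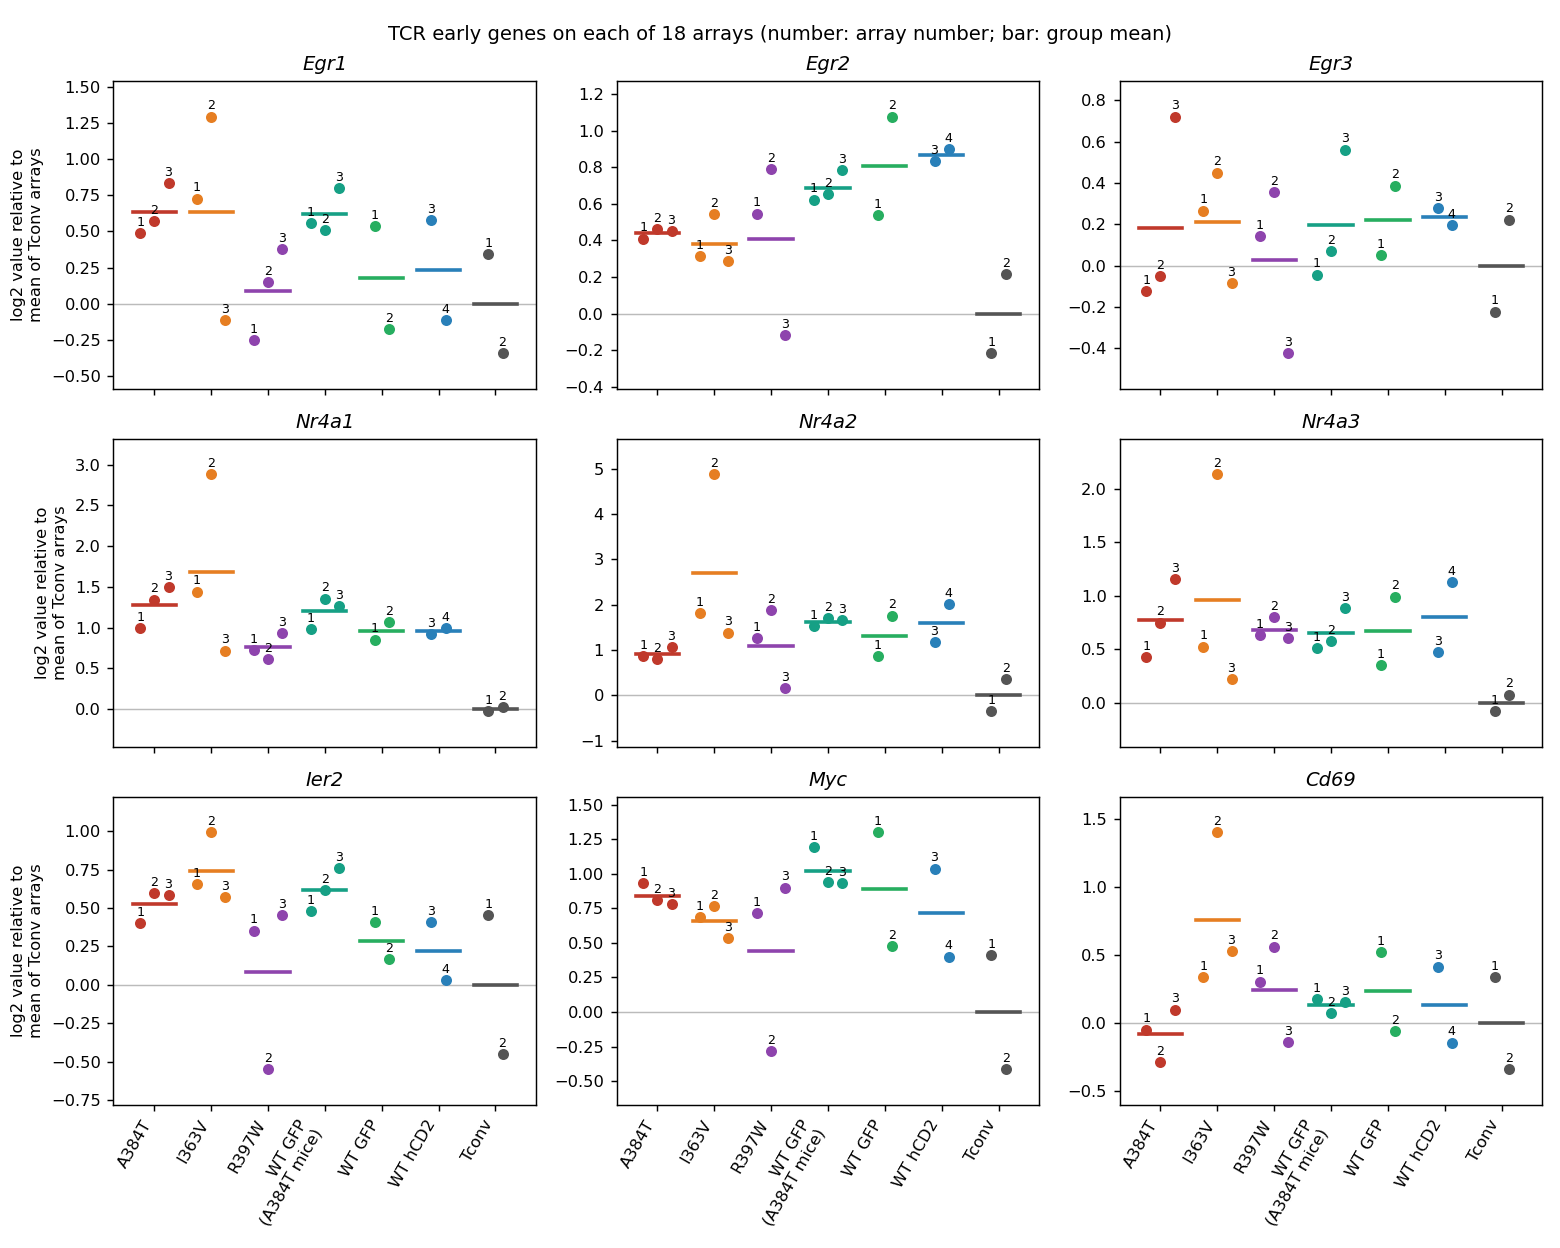
Log2 value of each of the 9 genes, with the Tconv mean of that gene at 0 (vertical axis), on each of 18 arrays in 7 groups (horizontal axis); the number beside a point is its array number and the bar is the group mean. Nr4a1 and Nr4a3 lie above both Tconv arrays on all 16 Treg arrays, and I363V array 2 reaches 4.88 for Nr4a2.

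Between WT Treg and Tconv cells, all 9 members had a positive difference, with a median of 0.74 log2 units against -0.01 over all genes. Without Tconv array 2 the differences of Egr1, Ier2 and Cd69 were negative (-0.14, -0.20 and -0.15), and without Tconv array 1 that of Egr3 was 0.005. The arrays of the groups did not overlap for Egr2, Nr4a1, Nr4a2 and Nr4a3, as was true, in the higher direction, of 13.3% of all genes. Of the 9 members, 1 was called (Egr2, higher), where 5.84% of all genes were called in either direction and 3.81% as higher in WT Treg cells. At an unadjusted p under 0.05, 3 members passed (Egr2, Nr4a1 and Myc), against 15.4% of genes. Against the same Tconv arrays, A384T had 0 members called, where 6.52% of genes were, 2 members (Nr4a1 and Myc) and 18.5% of genes at an unadjusted p under 0.05, and 6 members without overlap, all higher, as for 18% of genes. I363V had 1 member called, Nr4a1, where 2.51% of genes were called (1.48% as higher), 5 members and 12% of genes at an unadjusted p under 0.05, and 6 members without overlap, all higher, as for 12.7% of genes. R397W had 0 members called, where 2.02% of genes were, 0 members and 10.8% of genes at an unadjusted p under 0.05, and 2 members, Nr4a1 and Nr4a3, without overlap, as for 9.47% of genes. An F test over the 7 groups called 0 members, where 6.56% of genes were called, with 2 members and 16.7% of genes at an unadjusted p under 0.05 and the lowest adjusted p for Nr4a1 (0.220) and Egr2 (0.228). It called Nr4a1 without I363V array 2 or without I363V array 3, and Egr2 without R397W array 3. The members varied more within groups than most genes, with a median within-group SD of 0.40 against 0.18 for all genes.

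**Figure D2:**
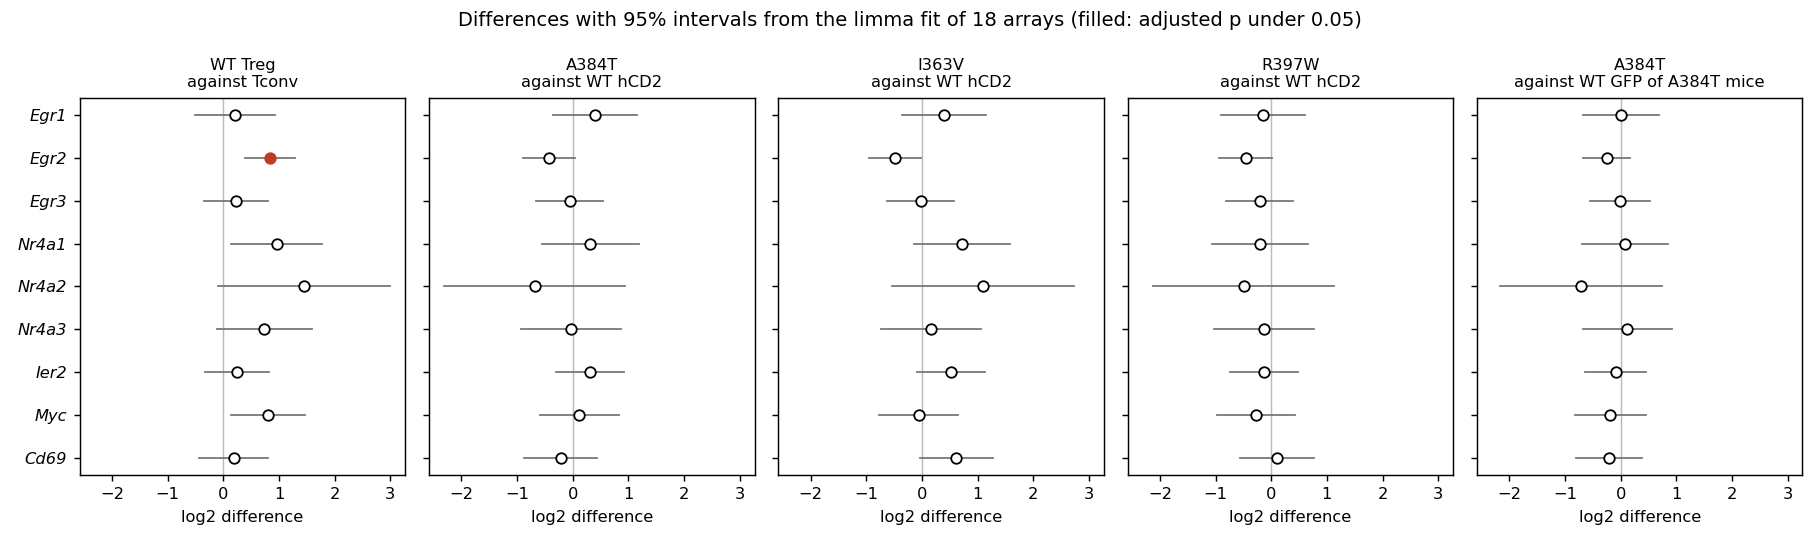
Log2 difference of each gene (vertical axis: gene; horizontal axis: log2 difference, first-named group minus second) with its 95% interval in 5 comparisons; filled points passed an adjusted p under 0.05 and open points did not. Egr2 in WT Treg against Tconv cells, at 0.84, is the filled point.

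No member passed the test between mutant and WT hCD2 Treg cells, and Egr2 was the member with the lowest adjusted p in all 3 comparisons, which share the same 2 WT hCD2 arrays. Egr2 averaged 0.44 ± 0.03 in A384T, 0.38 ± 0.14 in I363V and 0.41 ± 0.47 in R397W (SD, 3 arrays each), against 0.87 ± 0.05 in WT hCD2 (SD, 2 arrays). Its differences from WT hCD2 were -0.43 ± 0.22 in A384T (95% interval -0.90 to 0.05, adjusted p = 0.668), -0.48 ± 0.22 in I363V (-0.96 to -0.01, adjusted p = 0.541) and -0.46 ± 0.22 in R397W (-0.93 to 0.01, adjusted p = 0.447). The second Egr2 probe set gave -0.37, -0.35 and -0.39 log2 units. Non-overlapping arrays in the lower direction were seen for 14.9% of genes in A384T, 13.6% in I363V and 13% in R397W.

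A384T cells had 0 members called against WT hCD2, where 0.28% of genes were called, and 0 at an unadjusted p under 0.05, against 8.07% of genes. Nr4a2 averaged 0.91 ± 0.14 in A384T against 1.59 ± 0.60 in WT hCD2, a difference of -0.68 ± 0.76 (95% interval -2.31 to 0.94). Nr4a1 averaged 1.28 ± 0.26 in A384T against 0.96 ± 0.05 in WT hCD2, a difference of 0.32 ± 0.40 (-0.55 to 1.18). Neither set of arrays overlapped, with Nr4a2 in the lower direction and Nr4a1 in the higher one, which was also so for 10.8% of genes, and the lowest A384T value of Nr4a1, 0.995, barely cleared the highest WT hCD2 value, 0.994. I363V cells had 0 members called, where 0.912% of genes were, and 1, Egr2, at an unadjusted p under 0.05, against 8.94% of genes. Nr4a2 was 1.10 ± 0.76 log2 units above WT hCD2 in I363V (-0.53 to 2.72), Nr4a1 0.72 ± 0.40 (-0.15 to 1.59), Cd69 0.62 ± 0.31 (-0.04 to 1.28) and Ier2 0.52 ± 0.28 (-0.09 to 1.13). The Ier2 arrays did not overlap, as for 10.3% of genes in the higher direction. Without I363V array 2 the Nr4a2 difference was 0.00 ± 0.45, that of Nr4a1 0.12 and that of Cd69 0.30. R397W cells had 0 members called, where 2.26% of genes were, and 0 at an unadjusted p under 0.05, against 11.7% of genes, with 8 of 9 differences negative. The largest after Egr2 and Nr4a2 (-0.50 ± 0.76) was Myc at -0.27 ± 0.33 log2 units (-0.98 to 0.43), which was 0.09 without R397W array 2. The Nr4a2 difference was -0.03 and that of Egr2 -0.20 without R397W array 3. Of 8 myeloid markers 1 was lower in R397W than in WT hCD2 (Lyz2, -2.66 ± 0.35, adjusted p = 0.000849), and the medians of that list lay between -1.32 and -0.79 in R397W and between 0.13 and 0.14 in WT hCD2 arrays. The part of these cells in the member values was not tested.

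Within A384T mice, where mutant and wild-type Treg cells had been sorted from mice of the same genotype, Nr4a2 was lower in A384T cells on all 3 pairs of equally numbered arrays. Arrays with equal numbers deviated together over all genes, though the labels do not say what a number marks. Nr4a2 averaged 0.91 ± 0.14 in A384T and 1.63 ± 0.09 in WT GFP of A384T mice (SD, 3 arrays each), and the paired differences were -0.66, -0.90 and -0.60 log2 units. In the fit of all groups the difference was -0.72 ± 0.68, with adjusted p = 0.9998 for every member. No member was called, where 0.522% of genes were, and 0 had an unadjusted p under 0.05, against 5.03% of genes. With the number as a block in a fit of these 6 arrays it was -0.72 ± 0.09 (adjusted p = 0.00179), a call, in a fit with 2 residual degrees of freedom that called 5.23% of genes. Probe set 1450750_a_at gave -0.76 ± 0.08 (adjusted p = 0.00113 over all probe sets), 1447863_s_at -0.40 (adjusted p = 0.0513) and 1450749_a_at -0.23 (adjusted p = 0.309) in that fit.

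Egr2, Ier2, Myc and Cd69 were also lower on all 3 pairs, as were 20.6% of all genes. Egr2 differed by -0.21, -0.19 and -0.33 log2 units (adjusted p = 0.136 with the block), Myc by -0.26, -0.13 and -0.15 (adjusted p = 0.276) and Cd69 by -0.23, -0.36 and -0.06 (adjusted p = 0.251). Ier2 differed by -0.08, -0.02 and -0.18. Nr4a1 differed by 0.02, -0.01 and 0.23 and Nr4a3 by -0.08, 0.18 and 0.28, so the family members did not move alike here. The arrays of Egr2, Nr4a2 and Myc did not overlap between A384T and WT GFP of A384T mice, as was true of 6.39% of genes in the lower direction. The reporter difference in FoxP3WT:hCD2/WT:GFP mice can be set against this one: the Nr4a2 difference within A384T mice minus that between WT hCD2 and WT GFP was -0.99 ± 1.08 (95% interval -3.30 to 1.31), and 0 members were called, where 0.0495% of genes were, with 0 members and 3.75% of genes at an unadjusted p under 0.05. WT GFP of A384T mice against WT GFP gave 0 members and 0% of genes called, with 0 members and 2.6% of genes at an unadjusted p under 0.05. The largest member differences there were 0.44 ± 0.35 for Egr1 and 0.33 ± 0.28 for Ier2, whose arrays did not overlap, as for 11.1% of genes in the higher direction.

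**Figure D3:**
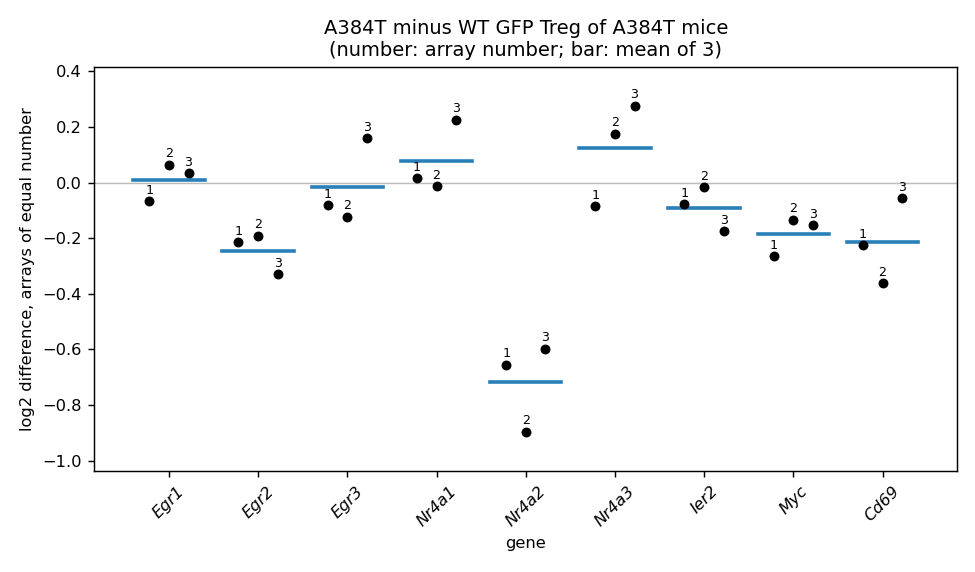
Log2 difference between the A384T array and the WT GFP array of A384T mice that carry the same number (vertical axis), for each gene (horizontal axis); points are the 3 pairs, the number beside each is the array number and the bar is the mean. Nr4a2 lies between -0.90 and -0.60, while Nr4a1 and Nr4a3 scatter around 0.

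Between mutants, Nr4a2 and Cd69 were lower in A384T than in I363V on every array, and neither difference passed the test. Nr4a2 differed by -1.78 ± 0.68 log2 units (95% interval -3.24 to -0.32, adjusted p = 0.403) and Cd69 by -0.84 ± 0.28 (-1.43 to -0.24, adjusted p = 0.272). Without I363V array 2 these were -0.69 and -0.51. Of all genes 8.03% did not overlap in this direction, 1.14% were called and 8.65% had an unadjusted p under 0.05, as Nr4a2 and Cd69 had. Myc was higher on every A384T array than on any I363V array, by 0.18 ± 0.30, as were 7.87% of genes. Against R397W, A384T cells had higher Egr1 (0.54 ± 0.32, adjusted p = 0.432) and Nr4a1 (0.52 ± 0.36, adjusted p = 0.522) on every array, as had 10.7% of genes, with 0 members and 3.13% of genes called and 0 members and 16% of genes at an unadjusted p under 0.05. I363V exceeded R397W by 0.92 ± 0.36 log2 units for Nr4a1 (adjusted p = 0.475), 1.59 ± 0.68 for Nr4a2 (adjusted p = 0.542) and 0.65 ± 0.25 for Ier2 (adjusted p = 0.472). Without I363V array 2 the Nr4a1 and Nr4a2 differences were 0.32 and 0.50, and without R397W array 2 that of Ier2 was 0.34. The arrays were free of overlap for Ier2, as for 5.27% of genes, and 0.0824% of genes were called, while these 3 members and 8.52% of genes had an unadjusted p under 0.05. These comparisons were made with limma's moderated test over all genes and 3 arrays a group.

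I363V array 2 gave the highest of the 3 I363V values for all 9 members, where 35.0% of all genes were highest on that array. Its excess over the mean of I363V arrays 1 and 3 was 3.28 log2 units, or 9.71-fold, for Nr4a2, a size exceeded by 3 genes on the chip. Nr4a1 exceeded that mean by 1.80 units (3.48-fold), Nr4a3 by 1.76 (3.38-fold), Egr1 by 0.99 and Cd69 by 0.97. The other members exceeded it by 0.15 for Myc to 0.38 for Ier2, and the median over all genes was 0.003. I363V array 3 was the lowest of the 3 for 8 members, against 40.4% of genes. Genes of other lists, which are not specific to TCR signalling, were also high on I363V array 2. Of the AP-1 factor genes 7 of 10, and of the other immediate early and feedback genes 12 of 14, were highest there. Among these, named after their values were seen, Fosb, an AP-1 subunit, read 6.01 and Klf4, a zinc finger factor, 4.27 on that array. The medians of 8 heat shock and chaperone genes, which mark stressed cells, were 0.41, 0.45 and 0.38 on I363V arrays 1, 2 and 3, and the inducible chaperone gene Hspa1a, named after its values were seen, read 1.17, 1.14 and -0.85. Of 7 T cell identity markers 5 were lowest on array 2, where 35.3% of genes were, and the medians of that list were 0.11, -0.06 and 0.22 on arrays 1, 2 and 3. Both erythroid markers were highest on array 2, at -0.04 and 0.05, near the Tconv level. Both were also highest on array 2 of A384T, of WT GFP of A384T mice and of R397W. Of the myeloid markers 4 of 8 were highest on I363V array 2, and as many on array 3. Of the B cell markers 3 of 6 were highest on I363V array 2, and as many on array 1. The part of stressed or other cells in the values of this array was not tested.

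The wild-type and Tconv arrays of FoxP3WT:hCD2/WT:GFP mice split in another way. Egr1, Ier2, Myc and Cd69 were higher on the first array of each group (WT GFP array 1, WT hCD2 array 3, Tconv array 1) than on its other array. Nr4a1, Nr4a2, Nr4a3 and Egr2 were lower on that first array. Some gaps were small, at 0.05 log2 units for Nr4a1 in Tconv, and 0.07 for Nr4a1 and 0.06 for Egr2 in WT hCD2. Deviations of equally numbered WT GFP and Tconv arrays correlated at 0.71 over all 18193 genes, so a split between these arrays was not particular to the members. The share of all genes that split like the members was not counted. The heat shock medians moved with Egr1, Ier2, Myc and Cd69: WT GFP array 1 had 0.65 and array 2 had -0.25, WT hCD2 array 3 had 0.37 and array 4 had -0.54, and Tconv array 1 had 0.38 and array 2 had -0.38. The part of the heat shock genes in these differences was not tested. In R397W the heat shock medians were -0.41, 0.35 and -0.90, and array 2, the highest, was the lowest array for Nr4a1, Ier2 and Myc and the highest for Egr2, Egr3, Nr4a2, Nr4a3 and Cd69. Far above that median on array 2 were the chaperone genes Hspa1a, at -1.30, 5.86 and -0.94 on R397W arrays 1, 2 and 3, and Hspa1b, at -2.10, 5.07 and -2.77, which were named after their values were seen. The part of these genes in the R397W values of the members was not tested. Jun, an AP-1 subunit also named after its values were seen, read -3.68, 0.88 and -3.22 on the same 3 arrays.

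**Figure D4:**
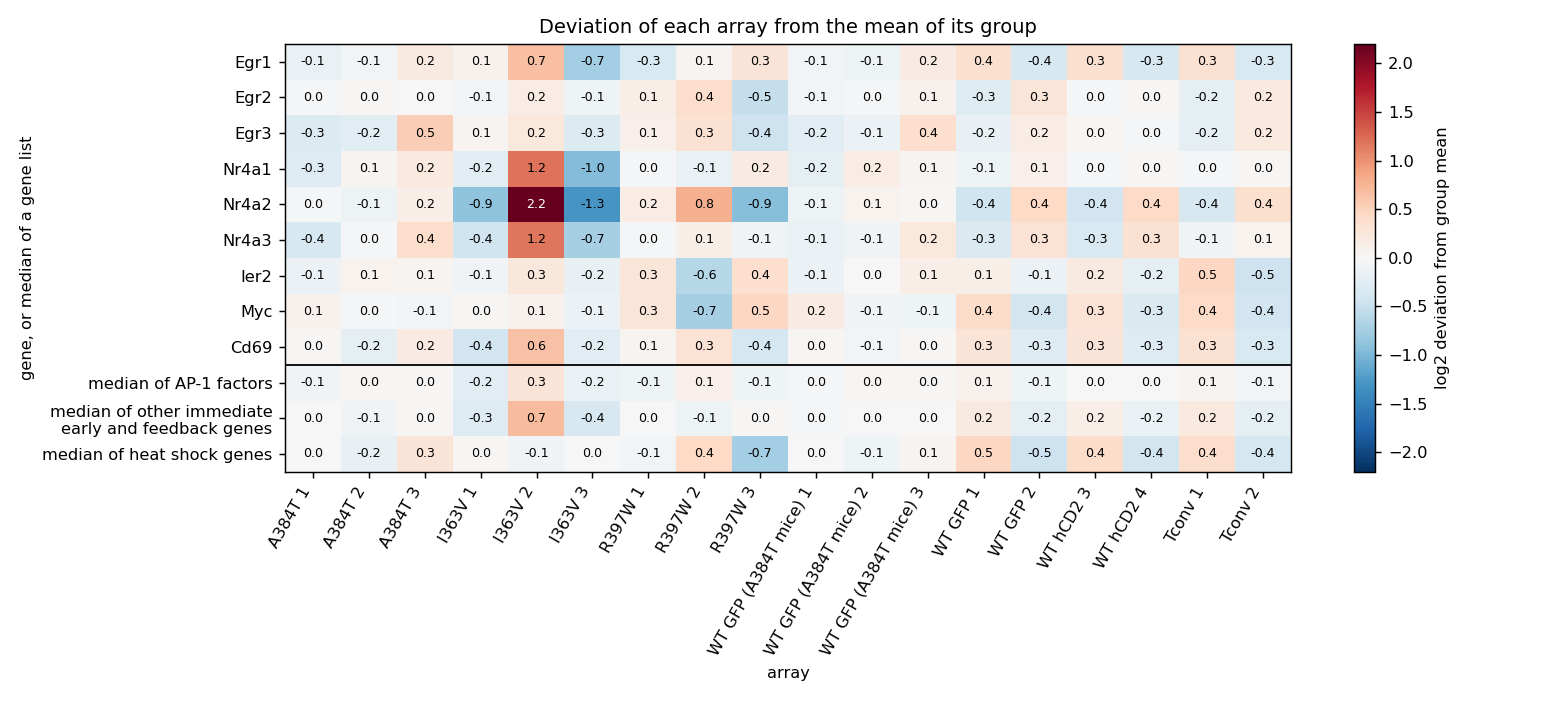
Deviation of each array from its group mean in log2 units (colour) for the 9 genes and for the medians of the AP-1, other immediate early and feedback, and heat shock lists (rows), over the 18 arrays (columns). The row of Nr4a2 holds the largest deviation, on I363V array 2. In WT GFP, WT hCD2 and Tconv, with 2 arrays each, the deviations of any gene mirror each other by construction.

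Over the 18 arrays the 3 Nr4a genes resembled each other, which is given as a description of arrays that share groups and hybridisations. Pearson's r was 0.82 for Nr4a1 and Nr4a2, 0.86 for Nr4a1 and Nr4a3 and 0.84 for Nr4a2 and Nr4a3, and 0.56, 0.69 and 0.62 without I363V array 2. Spearman's rho was 0.42, 0.65 and 0.60. Without the 2 arrays farthest from the median of the first-named gene, r was 0.34, 0.57 and 0.47. Leaving out the extremes of a gene can lower r by itself, so nothing is concluded from drops of this kind. For deviations from group means over all 18 arrays, r was 0.78, 0.89 and 0.89. Egr2 had r = 0.51 with Nr4a2 and 0.60 with Egr3, which were 0.24 and 0.31 without the 2 arrays farthest from the Egr2 median. Without I363V array 2 the r with Nr4a2 was 0.82. Ier2 resembled Myc (r = 0.77, or 0.26 without the 2 arrays farthest from the Ier2 median). For this pair r was 0.82 without I363V array 2 and 0.85 for deviations from group means. Egr1 resembled Nr4a1 (r = 0.73, or 0.48 without the 2 arrays farthest from the Egr1 median) and Ier2 (r = 0.71, or 0.53). For deviations these 2 values were 0.64 and 0.52.

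Outside the set, the genes with the most similar profiles over these arrays were, for Nr4a1, Csrnp1 (r = 0.94), Gadd45b and Lif (0.89 each), and for Nr4a2, Rel (0.93), Mir22hg (0.92) and Cdkn1a (0.89). Rel, an NF-kB subunit, was also the most similar gene to Nr4a3 (0.87), followed by Cdkn1a (0.84) and Akap3 (0.81). Egr2 was most similar to Morrbid (0.89), Melk (0.88) and Anxa4 (0.87), and Egr3 to Itfg1 and Sertad2 (0.84 each) and Tmem64 (0.81). Egr1 was most similar to Dync1h1 and Itpr2 (0.95 each) and Clcn4 (0.93), Ier2 to Cct2 (0.93), Slc25a38 (0.92) and Eif2b5 (0.91), and Myc to 1600014C10Rik, Mapkapk3 and Arf4 (0.94 each). Cd69 was most similar to Dnajb4 (0.87), Ckap5 (0.85) and Hey1 (0.83). None of these genes is a member, and they are named by rank of r alone. Spearman's rho was lower than r for all of them except Lif with Nr4a1 (0.91) and Sertad2 with Egr3 (0.85). It was 0.62 for Cct2 with Ier2, 0.64 for Cdkn1a with Nr4a3 and 0.66 for Cdkn1a with Nr4a2.

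Genes of other lists, chosen for their roles and not all specific to the TCR response, were read as well. In WT Treg against Tconv cells, where 5.84% of genes were called, 10 of 13 later TCR-induced genes rose, among them the interleukin 2 receptor chain Il2ra (5.34 log2 units), the surface protein Cd83 (3.93) and the costimulatory receptors Tnfrsf4 (3.51) and Tnfrsf9 (3.28). Il2ra and Tnfrsf18 are on both this list and the Treg identity list, so the counts of these lists share genes. Of 10 AP-1 factor genes 2 rose, Batf (1.14 ± 0.25, adjusted p = 0.0128) and Junb (1.45 ± 0.39, adjusted p = 0.0393), and of 14 other immediate early and feedback genes 1 rose, the MAP kinase phosphatase Dusp1 (1.79 ± 0.48, adjusted p = 0.0421). Of 13 genes of the TCR complex and proximal signalling 1 rose (Ptpn22, 0.35, adjusted p = 0.0384). Of 12 genes on the Myc-linked growth list 2 rose, Odc1 (1.05) and Mxd1 (1.26). Mxd1 encodes an antagonist of Myc. Among 8 Egr partners and Egr2/Egr3-linked restraint genes 0 passed limma's test, with 1 at an unadjusted p under 0.05, and among 4 Cd69 partners in egress and 8 heat shock genes 0 passed, with 0 at an unadjusted p under 0.05. The later TCR-induced list had 10, 8 and 7 of 13 genes called higher in A384T, I363V and R397W than in Tconv cells, where 6.52%, 2.51% and 2.02% of all genes were called.

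Against WT hCD2, the later TCR-induced genes held 0 calls of 13 in A384T, 1 in I363V (Cd83, -1.75 ± 0.22, adjusted p = 0.00110) and 4 in R397W (Cd83, -1.91, Cd44, -1.20, Icos, -1.62, and Il2ra, -0.97), all lower, where 0.28%, 0.912% and 2.26% of all genes were called. Of the 6 Treg identity genes, which include Il2ra, 0 were called in A384T, 1 in I363V (Ikzf2, -0.91) and 3 in R397W (Nrp1, -1.79, Ikzf2, -1.02, and Il2ra), also lower. The 10 AP-1 factor genes held 0 calls in each of these 3 comparisons, with 1, 3 and 4 at an unadjusted p under 0.05 in A384T, I363V and R397W. The 14 other immediate early and feedback genes also held 0 calls, with 0, 4 and 0. Within A384T mice the AP-1 factor Batf fell by 1.31 ± 0.24 log2 units in A384T against WT GFP Treg cells (adjusted p = 0.0222). Between A384T and R397W, Jun (3.84) and Junb (1.51) were called higher in A384T, while no member was called.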

How the data were processed

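RNA of 18 samples was hybridised to Affymetrix arrays. The deposited log2 expression values were made by the authors with RMA, per the submitters' processing notes (version not given in the sources used here), and the deposited values are shifted so that each probe set averages 0 over the 2 Tconv arrays, which removes levels but not differences. The log base is taken from RMA's convention. Of 45101 probe sets, 34945 had 1 gene in the platform annotation, 932 had several and were left out, and 13 control probe sets with a gene were set aside. The probe set with the largest variance stood for each of 18193 genes, 9010 of which had several. The number of arrays, 2 or 3 a group, limits the precision.

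One limma fit (3.58.1, in R 4.3.3) of 7 group means to 18 arrays, with no covariate, gave moderated two-sided tests with 11 residual and 3.29 prior degrees of freedom, adjusted by Benjamini-Hochberg over all 18193 genes, with calls at an adjusted p under 0.05. The fit was tested on simulated data. Tables and figures used Python 3.11.15 with numpy 2.4.6, pandas 2.3.3 and matplotlib 3.10.9. Members and lists were chosen with earlier results of these data known. All members were named in every comparison, at most 4 called genes of each other list by adjusted p, and the 3 genes with the highest r to each member, other genes being marked where named.

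Replicate numbers were checked for pairing by correlating deviations from group means over all genes. Equal numbers of A384T and WT GFP of A384T mice gave 0.69, 0.65 and 0.58, so they paired samples by the data, not by the labels, and were used as a block in an alternative fit. Alternatives were other samples in the fit, robust moderation, array weights, the mean of probe sets, every probe set, array medians subtracted, the more variable genes alone, each array left out, and blocks.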

Additional observations from a re-analysis of the deposited data

How the results depend on the processing

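Over 1710 values of single members under alternatives, 123 changed sign, all of them uncalled and at most 0.40 log2 units in size, 10 lost a call and 14 gained one, and no called value changed sign. The 10 lost calls were those of Egr2 in WT Treg and of Nr4a1 in I363V, each against Tconv cells. These were the only member differences called in the fit reported, and they had 16 and 13 alternatives. The number of members called in WT Treg against Tconv cells, 1 in the fit reported, was 0 to 3 with 1 array left out in turn, that in I363V against Tconv cells, also 1, was 0 to 2, that in A384T against Tconv cells 0 to 1, and that of the F test over 7 groups 0 to 1 (Nr4a1 without I363V array 2 or 3, Egr2 without R397W array 3). For WT Treg and A384T against Tconv cells, these ranges include the fit without I363V array 2, an array outside both comparisons. It was left out after seeing the data, and that fit reached their upper ends, 3 and 1. With the more variable 50% of genes alone, A384T against Tconv had 1 call (Nr4a1) and I363V against Tconv 2 (Nr4a1 and Nr4a2). In fits of the compared groups alone, A384T against WT GFP of A384T mice had 1 call (Nr4a2), A384T against Tconv 1 (Nr4a1), I363V against Tconv 0, and WT Treg against Tconv 1, which was Nr4a1 and not Egr2. With the replicate number as a block, A384T against WT GFP of A384T mice had 1 call (Nr4a2). WT GFP and Tconv alone, with the number as a replicate block, had 5 calls, Egr2 (0.81, adjusted p = 0.000479), Nr4a1 (0.96, adjusted p = 0.000133), Nr4a2 (1.32, adjusted p = 9.12e-06), Nr4a3 (0.67, adjusted p = 0.00478) and Myc (0.89, adjusted p = 0.000216), in a fit with 1 residual degree of freedom that called 18.4% of genes. Their same-number correlation was 0.71. It is a single value, because with 2 arrays a group the deviations mirror each other and unlike numbers gave -0.71. The labels do not say that these numbers mark a shared animal or day. Equal numbers correlated at -0.32, 0.07 and -0.06 between A384T and I363V, -0.21, -0.17 and -0.09 between A384T and R397W, 0.04, 0.34 and 0.01 between I363V and R397W and -0.05 and -0.04 between WT GFP of A384T mice and WT GFP, and a block changed no call on a member there. Between mutant groups and WT hCD2 no paired analysis was possible, because they share fewer than 2 numbers. The 3 R397W arrays and I363V array 2 were left out of the shared spread after seeing the data: without the R397W arrays, I363V against Tconv had 0 calls, and without I363V array 2, WT Treg against Tconv had 3 (Egr2, Nr4a1 and Nr4a2) and A384T against Tconv 1 (Nr4a1). The causes of these changes were not tested.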
